A study of Mus musculus with 6 samples.

Results

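Neurexins, neuroligins and cerebellins were read from striatal RNA-seq of Shank3 TG and WT mice as the 8 genes Nrxn2, Nrxn3, Nlgn1, Nlgn2, Nlgn3, Cbln1, Cbln2 and Cbln4, of 46078 genes in the table. Each was found by its Ensembl identifier in the GENCODE M21 annotation of GRCm38, with no use of its values. The TG mice overexpressed EGFP-tagged Shank3, both genotypes were male C57BL/6J mice aged 12 weeks, and RNA came from the dissected striatum, with 1 library per mouse and 3 mice per genotype. The promoter of the transgene is not given in the sources used here. The comparison asks whether a postsynaptic scaffold in excess comes with other amounts of RNA for the adhesion molecules at either side of the synapse.

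Neurexins are presynaptic membrane proteins that reach across the cleft and bind several kinds of partner. Neuroligins, on the postsynaptic side, bind neurexins directly, and through their cytoplasmic end they hold scaffold proteins, among them the product of Dlg4, which is linked to Shank3 by way of SAPAP proteins. Nlgn1 is known from excitatory synapses, Nlgn2 from inhibitory synapses, where it works with gephyrin, and Nlgn3 from both. Cerebellins are small secreted proteins that tie neurexins to the delta type glutamate receptors. Spiny projection neurons of the striatum are themselves inhibitory and receive excitatory axons from cortex and thalamus. The RNA for neurexins and cerebellins of those incoming excitatory axons is made in cell bodies outside the striatum. Binding by neurexins depends on splicing and on the long and short forms of each gene, which a count per gene does not separate.

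In none of the 8 genes did Shank3 TG and WT striatum differ beyond the spread between mice. The estimated differences ran from -4.37% (Nrxn2) to 15.2% (Cbln4). Intervals of 95% kept the 3 neuroligins to changes between -10.7% and 7.77%, whereas they left room for up to 36.3% more RNA of Cbln4. At an adjusted P value of 0.05, limma called 0 of the 8 genes, against 0.00568% of the 17605 genes tested, and 0 of them passed an unadjusted P value of 0.05, against 4.31%. EdgeR and limma-voom, which each called 0.00568% of all genes, and DESeq2, which called 0.0398%, also called 0 of the 8. The TG and WT values overlapped in 8 of 8 genes, while the groups did not overlap in 10.1% of all genes tested, with TG values higher in 5.06% and lower in 5.05%. The exact permutation test of 3 mice against 3 cannot go below P = 0.1, so it could not pass 0.05 for a single gene.

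All values are normalized read counts, that is, reads per gene divided by the authors' size factor of the library. The libraries held between 27689589 and 36647626 reads on genes. Shank3 (ENSMUSG00000022623) checked the labels, with 29891, 28309 and 26044 normalized read counts in TG replicates 1 to 3, against 13807, 12918 and 13865 in WT replicates 1 to 3. It was higher in TG mice by 1.05 ± 0.06 (SE) in log2 units, with an adjusted P of 7.04e-05 by limma, and it was the 1 gene that limma called. The 10 markers of medium spiny neurons summed to between 123534 and 172888 normalized read counts in TG mice, against 149108 to 171967 in WT mice, so the libraries held the main cell type of the labelled tissue. In TG replicate 1 the choroid plexus markers stood apart, with a sum of 15643 against 570.5 to 2012 in the other libraries. In that library the medium spiny neuron markers were at their lowest. The choroid plexus sum of 2012 was that of TG replicate 2, also above the WT sums of 570.5 to 932, whereas TG replicate 3 had 651. All 10 choroid plexus markers had a higher mean in TG mice, and limma called 0 of them. At an unadjusted P under 0.05 by limma were 4 of the 10, against 4.31% of all genes tested. Without overlap and higher in TG mice were 2 of the 10, against 5.06%. The 6 microglia markers had sums of 9866 to 10746 across TG and 10803 to 11196 across WT mice. All 6 had a lower mean in TG mice. Without overlap and lower in TG mice were 3 of them, against 5.05% of all genes tested. Limma called 0 of the 6, and 2 were at an unadjusted P under 0.05, against 4.31% of all genes tested. Markers of astrocytes (6 genes), oligodendrocytes (6) and endothelial cells (4) also had 0 called and 0 at that unadjusted P. The part of these cell types in the values of the 8 genes was not tested. Without TG replicate 1 the log2 fold changes were -0.16 for Nrxn2, 0.14 for Nrxn3, 0.03 for Nlgn1, -0.07 for Nlgn2, 0.00 for Nlgn3, -0.09 for Cbln1, 0.08 for Cbln2 and 0.21 for Cbln4. In that fit limma called 0 of the 8 genes, against 0.00568% of all genes tested, and 2 of the 8, Nrxn2 and Nrxn3, passed an unadjusted P value of 0.05, against 7.54% of all genes. Fewer cells of a type and less RNA per cell cannot be told apart in such tissue samples.

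The coding sequences show how close the members of each family are. Below are the last 60 coding bases of the longest complete coding sequence in GENCODE M21, 5′ to 3′ and ending in the stop codon. For neurexins and neuroligins, capitals mark the last 4 codons before the stop, where the proteins carry the motif that PDZ domains of scaffold proteins bind.
Nrxn2: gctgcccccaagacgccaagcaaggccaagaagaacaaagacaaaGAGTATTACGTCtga
Nrxn3: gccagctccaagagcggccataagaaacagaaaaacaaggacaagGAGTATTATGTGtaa
Nlgn1: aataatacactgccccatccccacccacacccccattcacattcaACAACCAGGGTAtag
Nlgn2: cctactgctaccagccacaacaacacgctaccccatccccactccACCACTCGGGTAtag
Nlgn3: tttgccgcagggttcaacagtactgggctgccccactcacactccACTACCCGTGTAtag

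Between the neurexins, 2 of the 12 capital bases differed, each at the third base of its codon, against 22 of the 60 bases shown. In each pair of neuroligins 3 of the 12 capital bases differed, against 24 to 29 of 60. The whole coding sequences were 69.1% identical between Nrxn2 and Nrxn3 over the aligned bases, and 66.6% to 70.5% identical between neuroligins. For the cerebellins Cbln1 and Cbln4, the same stretch is shown with capitals at each base where the genes differ.
Cbln1: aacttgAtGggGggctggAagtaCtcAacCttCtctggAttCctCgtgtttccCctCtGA
Cbln4: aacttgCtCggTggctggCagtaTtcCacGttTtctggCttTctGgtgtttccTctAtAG

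There 15 of 60 bases differed, 12 of them at the third base of a codon, and the coding sequences of the 3 cerebellins were 70.2% to 74.9% identical. Among the transcripts of the 8 genes, 0 windows of 31 bases were shared between members, so no stretch of that length in one gene was found letter for letter in another. Overlap with other annotated genes was larger. Gm21986, a processed transcript on the same strand, shares 3823 exon bases with Nlgn3, which is 41.2% of the exon bases of Nlgn3. A830092H15Rik, on the opposite strand, shares 9.16% of the exon bases of Nlgn1, and the library kit did not mark strand. How reads in shared bases were counted is not given in the sources used here. If they were left out, the level of Nlgn3 is understated.

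Levels between genes were compared per kilobase (kb) of exon, as the mean normalized read count of the 6 libraries divided by the joined length of all annotated exons. Nlgn2 was the most abundant of the 8 at 1618 per kb, above 95.1% of the protein-coding genes tested. Nrxn2 (643 per kb) and Nrxn3 (632 per kb) followed, and their ranges over the libraries overlapped. Then came Cbln2 at 306 per kb, Nlgn1 at 164 per kb and Nlgn3 at 152 per kb, the last of these also overlapping in range with Nlgn1. Over only the exon bases that Nlgn3 does not share with Gm21986, its level would be 259 per kb, above Nlgn1. Cbln4 (71.8 per kb) and Cbln1 (49.2 per kb) were lowest, and Cbln1 lay above only 26.2% of protein-coding genes. Each of the other neighbours in this order was separated in all 6 libraries.

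**Figure D1:**
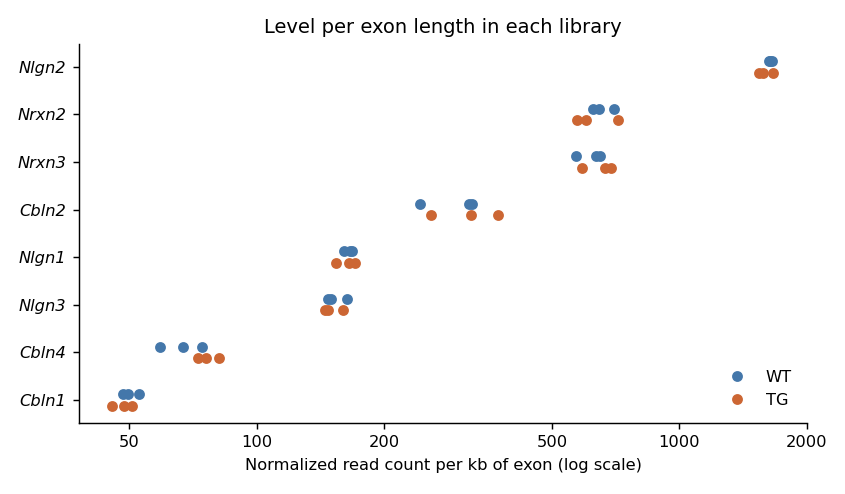
Normalized read count per kb of exon (x axis, log scale) of the 8 genes (y axis), with 1 point per library, WT in blue and TG in orange. Nlgn2 lies highest, between 1546 and 1663 per kb, and Cbln1 lowest, between 45.5 and 52.7 per kb.

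The neurexins are the presynaptic hub of these contacts. Nrxn2 (ENSMUSG00000033768; GRCm38 chromosome 19, 6418731 to 6544169, plus strand) had 9906, 7889 and 8319 normalized read counts in TG replicates 1, 2 and 3 and 8911, 9659 and 8637 in WT replicates 1, 2 and 3. The highest value of all was that of TG replicate 1 and the lowest values were those of the other TG mice, so the TG values enclosed the WT range. The TG mean was 8705 ± 1062 (SD, n = 3) and the WT mean 9069 ± 529 (SD, n = 3). This was a log2 fold change of -0.06 with a 95% interval from -0.24 to 0.11 (adjusted P = 0.971 by limma). Without TG replicate 1 the log2 fold change was -0.16, and without TG replicate 2 it was 0.00. Without WT replicate 2 it was -0.02, so its size rests on single libraries of either genotype.

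Nrxn3 (ENSMUSG00000066392; chromosome 12, 88722876 to 90334935, plus strand) had 7406, 8399 and 8661 normalized read counts in the TG mice, against 7173, 7988 and 8174 in the WT mice. In each genotype replicate 1 was the lowest, and 2 TG mice lay above the highest WT mouse. The log2 fold change was 0.07 (95% interval -0.09 to 0.22, adjusted P = 0.971 by limma). It was 0.14 without TG replicate 1 and 0.01 without WT replicate 1. Per kb of exon, Nrxn2 made up 55.0%, 46.2% and 46.7% of the sum of both neurexins in the TG mice, against 53.1%, 52.5% and 49.1% in the WT mice. The share was thus highest in a TG mouse and lowest in the other TG mice, and the groups overlapped.

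The neuroligins are the postsynaptic partners, and their SDs between mice of the same genotype lay between 0.04 and 0.08 on the log2 scale. Nlgn2 (ENSMUSG00000051790; chromosome 11, 69823122 to 69837784, minus strand) had 9618, 8942 and 9106 normalized read counts in the TG mice, against 9489, 9447 and 9563 in the WT mice. The WT mice lay within a narrow range, with 2 TG mice under it and 1 above it. Only 7.04% of the genes tested had a smaller SD than its 0.04, and the log2 fold change was -0.04 (95% interval -0.14 to 0.06, adjusted P = 0.971 by limma). Nlgn1 (ENSMUSG00000063887; chromosome 3, 25426215 to 26332460, minus strand) had 2068, 2289.5 and 2222 normalized read counts in the TG mice, against 2232, 2255 and 2156 in the WT mice. Both its lowest and its highest value were from TG mice, and the log2 fold change was -0.01 (95% interval -0.13 to 0.10), turning to 0.03 without TG replicate 1. Nlgn3 (ENSMUSG00000031302; chromosome X, 101299168 to 101325963, plus strand) had 1343, 1487 and 1364 in the TG mice, against 1514, 1392 and 1371 in the WT mice. Here 2 TG mice lay just under the lowest WT mouse and the third within the WT range, with a log2 fold change of -0.03 (95% interval -0.16 to 0.11) that was 0.02 without WT replicate 1.

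Nlgn2 took most of the neuroligin RNA per kb of exon in every mouse, between 82.4% and 84.8% in TG mice and between 83.3% and 84.3% in WT mice. These shares used all annotated exon bases of each gene, including those that Nlgn3 shares with Gm21986. With Nlgn3 at its 259 per kb over unshared bases, the shares of Nlgn2 and Nlgn1 would be lower. Over all annotated exon bases, Nlgn1 took 8.57% ± 0.641 (SD, n = 3) of the neuroligin RNA in TG mice, as against 8.41% ± 0.212 (SD, n = 3) for WT. The shares of TG and WT mice overlapped for both the neuroligin of inhibitory synapses and that of excitatory synapses.

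**Figure D2:**
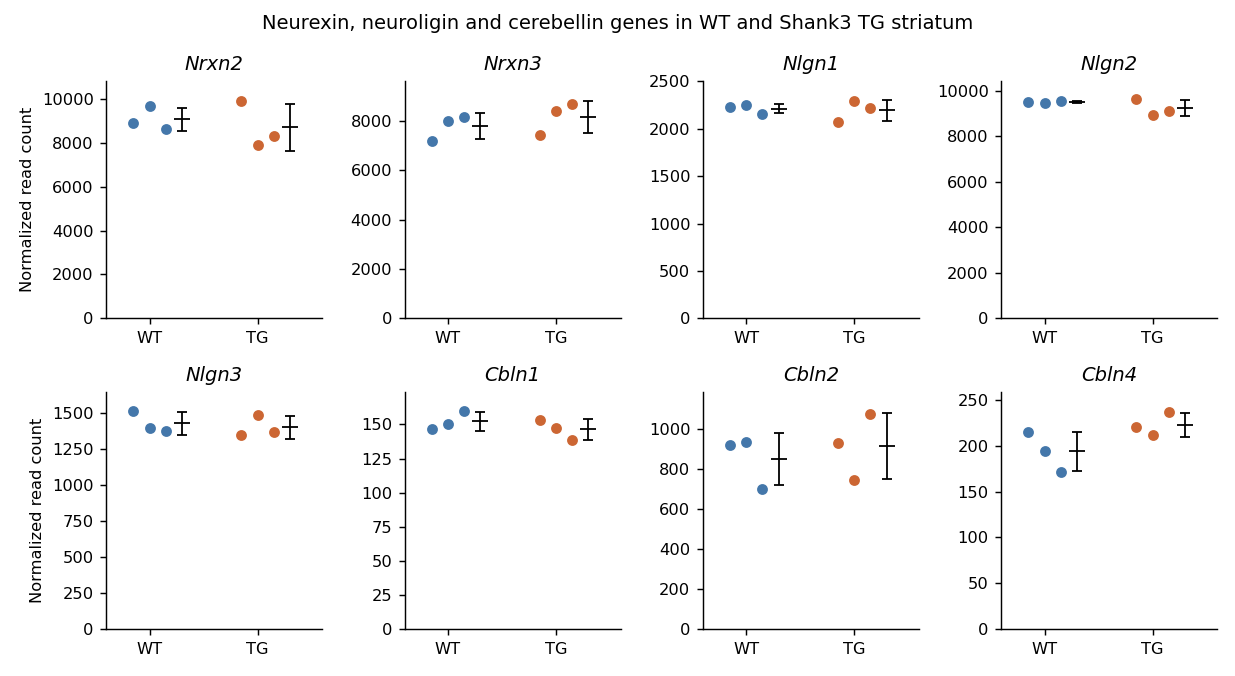
Normalized read counts (y axis, from 0) of the 8 genes in the WT (blue) and TG (orange) mice, with 1 point per mouse in the order of replicates 1 to 3. The black bar is the mean ± SD (n = 3). The groups overlap in each panel, and in Cbln4 2 TG mice, at 221 and 237, lie above the highest WT mouse at 215.

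The cerebellins differed among themselves in spread, with SDs between mice of 0.07, 0.25 and 0.13 for Cbln1, Cbln2 and Cbln4 on the log2 scale. Cbln4 (ENSMUSG00000067578; chromosome 2, 172036233 to 172043466, minus strand) had the largest difference of the 8 genes, with 221, 211 and 237 normalized read counts in the TG mice, against 215, 195 and 172 in the WT mice. TG replicates 1 and 3 were above all WT mice, and TG replicate 2 was just under WT replicate 1. The TG mean was 223 ± 12.8 (SD, n = 3) and the WT mean 194 ± 21.7 (SD, n = 3). The difference was 0.20 ± 0.11 (SE) in log2 units, with a 95% interval from -0.04 to 0.45 (limma adjusted P = 0.971, exact permutation test P = 0.2). Of all genes tested, 86.4% had a smaller log2 fold change in size. Depth limits this gene, since its 175 to 257 reads per library give a counting error of 0.10 on the log2 scale, close to its SD between mice of 0.13. The fold change was between 0.12 without WT replicate 3 and 0.28 without WT replicate 1.

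Cbln2 (ENSMUSG00000024647; chromosome 18, 86711110 to 86718283, plus strand) had 930, 749 and 1076 normalized read counts in the TG mice, against 921, 936 and 704 in the WT mice. TG replicate 3 was highest and WT replicate 3 lowest, with TG replicate 2 close to the lowest. The highest value was 1.53 times the lowest, the widest range among the 8 genes. Its SD between mice, 0.25, exceeded its counting error of 0.05, and 81.0% of the genes tested had a smaller SD. The log2 fold change was 0.10 (95% interval -0.20 to 0.40, adjusted P = 0.973 by limma), and it was -0.03 without WT replicate 3 and -0.02 without TG replicate 3.

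Cbln1 (ENSMUSG00000031654; chromosome 8, 87468405 to 87472609, minus strand), best known from cerebellar granule cells, had 154, 147 and 138 normalized read counts in the TG mice, against 146, 151 and 160.0 in the WT mice. In all, 1 TG mouse was below the WT range and the others within it. The log2 fold change was -0.06 (95% interval -0.29 to 0.18, adjusted P = 0.983 by limma). It was -0.02 without TG replicate 3 or without WT replicate 3, and -0.09 without TG replicate 1. Its SD between mice, 0.07, was below the counting error of 0.12, so no spread beyond counting was measurable at this depth. Cbln3 (ENSMUSG00000040380), which lies outside the 8 genes and was named after its values were seen, had 9.44, 14.6 and 10.7 normalized read counts in TG mice, whereas WT mice had 16.0, 16.8 and 16.7, without overlap. It rested on 11 to 18 reads per library, and its log2 fold change of -0.50 had an adjusted P of 0.971 by limma. Groups apart with lower TG values made up 5.05% of all genes tested.

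Patterns over the libraries were compared for the cerebellins. Among 111 tested genes of the pathway and marker lists, the nearest to Cbln2 in pattern were C1ql3 and then Tbr1, by the root mean square difference of log2 values about each gene's mean over the 6 libraries. These differences were 0.08 and 0.11, against 0.21 for the spread of Cbln2 itself. C1ql3, a secreted relative of the cerebellins that binds neurexins, had 565, 446 and 649 normalized read counts in the TG mice, against 508, 503 and 439.8 in the WT mice. Its highest library was TG replicate 3, and its lowest were WT replicate 3 and TG replicate 2, as for Cbln2. The choice of C1ql3 as the nearest gene favours such a likeness. Tbr1 is a transcription factor of cortical excitatory neurons.

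The 8 markers of cortical excitatory neurons summed to 39468, 27671 and 38616 normalized read counts in TG replicates 1, 2 and 3 and to 37037, 35486 and 32347 in WT replicates 1, 2 and 3. The lowest sums were those of TG replicate 2 and WT replicate 3, the libraries with the lowest Cbln2, whereas the highest sum was that of TG replicate 1 and the highest Cbln2 that of TG replicate 3. Not every cortical marker was low in WT replicate 3. Fezf2 had 533 normalized read counts there, against 449 and 454 in the other WT mice. Of these markers, 4 had a higher and 4 a lower mean in TG mice, with a median log2 fold change of 0.03, and 0 were at or near 0. The part of cortical cells in the values of Cbln2 was not tested. For Cbln1 the nearest genes were Mbp (0.04), Dag1 (0.05) and Tmem119 (0.05), close to the spread of Cbln1 itself at 0.06. For Cbln4 they were Dlg3 (0.11), Slc17a6 (0.11) and Cask (0.11), against a spread of 0.15. The counting error was 0.10 for Cbln4 and 0.05 for Cbln2, so closeness to Cbln4 and to Cbln2 cannot be compared. The 7 thalamus markers summed to between 1692 and 1961 in TG mice and between 1710 and 1857 in WT mice, with Gbx2, one of the defining markers, at 6.55 to 16.7 normalized read counts. The 8 markers of septum and hypothalamus summed to between 622 and 1453 in TG mice and between 682 and 794 in WT mice. TG replicate 1 had the highest sum, and Avp, Sim1 and Hcrt among the markers had means under 10. In TG replicate 2, Avp had 15.7 and Oxt 45.0 normalized read counts, against at most 1.96 and 5.89 in the other libraries.

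For the neurexins, the marker sums were also set beside the values. That of medium spiny neurons was lowest in TG replicate 1 and highest in TG replicate 2, whereas Nrxn2 was highest in TG replicate 1 and lowest in TG replicate 2. The sum of cortical markers, like Nrxn2, was highest in TG replicate 1 and lowest in TG replicate 2. The sums of choroid plexus, astrocyte and thalamus markers, and of septum and hypothalamus markers, were also highest in TG replicate 1. Not every marker of these lists was highest there. Of the thalamus markers, Prkcd had 675 normalized read counts in TG replicate 1, against 330 to 419 in the other libraries. Synpo2, the thalamus marker with the highest mean, was lowest there, at 475 against 609 to 710. Zic1 (1041) and Zic4 (196) were highest in TG replicate 1, whereas Nkx2-1 (116) and Trh (93.5) were higher in TG replicate 2. Nrxn3 was low in TG replicate 1 and also in WT replicate 1. Of the 10 medium spiny neuron markers, 8 had a lower mean in TG mice, with a median log2 fold change of -0.13 and 0 of them called. The part of any of these cell types or regions in the values of the neurexins was not tested. The 7 interneuron markers summed to between 9503 and 10569 in TG mice and between 10040 and 10735 in WT mice.

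**Figure D3:**
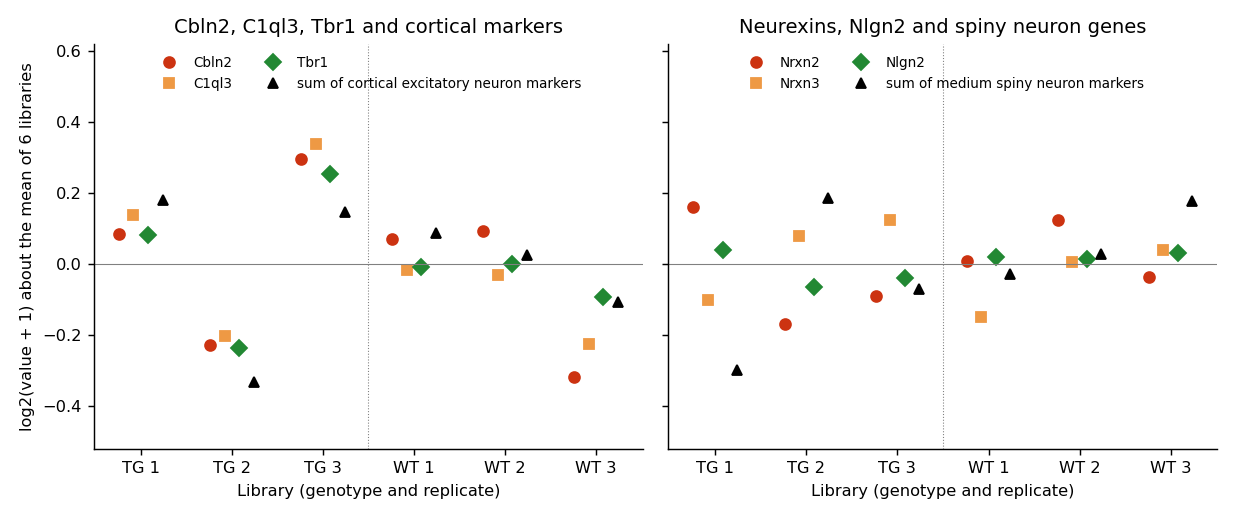
Log2(normalized read count + 1) of each library (x axis) about the mean of the 6 libraries (y axis). Left, Cbln2, C1ql3, Tbr1 and the summed cortical markers, which are all below their means in TG replicate 2 and WT replicate 3. Right, Nrxn2, Nrxn3, Nlgn2 and the summed medium spiny neuron markers, where Nrxn2 is 0.16 above its mean and the marker sum is at -0.30 from its own mean in TG replicate 1.

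The other genes of the pathway were taken as 42 genes in 6 lists, all of them tested. Limma called 0 of the 42, against 0.00568% of all genes, and 1 passed an unadjusted P value of 0.05, against 4.31%, whereas edgeR, limma-voom and DESeq2 also called 0. The groups did not overlap in 6 of the 42 (10.1% over all genes), 4 higher (Nxph4, Gphn, Cask and Mmp9) and 2 lower (Car11 and Lhfpl4) in TG mice. Their median log2 fold change was 0.03, and that over all genes tested was 0.00. Of the 8 members, 3 had a higher and 5 a lower mean in TG mice, with a median of -0.02.

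Of the 17 extracellular partners of neurexins, 11 had a higher and 6 a lower mean in TG mice. Car11, a secreted protein of the carbonic anhydrase family that binds neurexins, had the smallest P value. It had 7173, 7349.7 and 7414 in TG mice, against 8228, 7761 and 8225 normalized read counts in WT mice, each TG mouse below each WT mouse. On the log2 scale the difference was -0.14 ± 0.04 (SE), with an unadjusted P of 0.0096 and an adjusted P of 0.971 by limma, so the difference did not pass after adjustment. The leucine-rich postsynaptic ligands Lrrtm1 to Lrrtm4 were between -0.06 and 0.13.

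Among the 9 partners and scaffolds of neuroligins, Gphn had the smallest P value. It encodes gephyrin, the scaffold of inhibitory synapses that works with Nlgn2. It had 2817, 2875 and 2853 normalized read counts in the TG mice, against 2641, 2787 and 2684 in the WT mice, without overlap, a difference of 0.08 ± 0.04 (SE) in log2 units (limma adjusted P = 0.971). Dlg4, which encodes the main scaffold of excitatory synapses that binds neuroligins, had a log2 fold change of -0.05.

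Cask, a kinase-like adaptor at the cytoplasmic end of neurexins, led its list of 6 with 2793, 2660.5 and 2741 normalized read counts in the TG mice, against 2656, 2599 and 2560.4 in the WT mice. The lowest TG mouse lay just above the highest WT mouse, and the difference was 0.07 ± 0.05 (SE) in log2 units (limma adjusted P = 0.971). Of the 4 proteases, Mmp9, known to cleave Nlgn1, had 28.3, 25.9 and 24.3 in the TG mice, against 19.5, 21.5 and 11.8 in the WT mice. These few reads gave a difference of 0.59 ± 0.27 (SE) in log2 units (limma adjusted P = 0.971). Khdrbs1, an RNA-binding protein that acts on neurexin splicing, had the smallest P value of the 4 splicing factors, with a log2 fold change of 0.06 and overlapping groups.

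**Figure D4:**
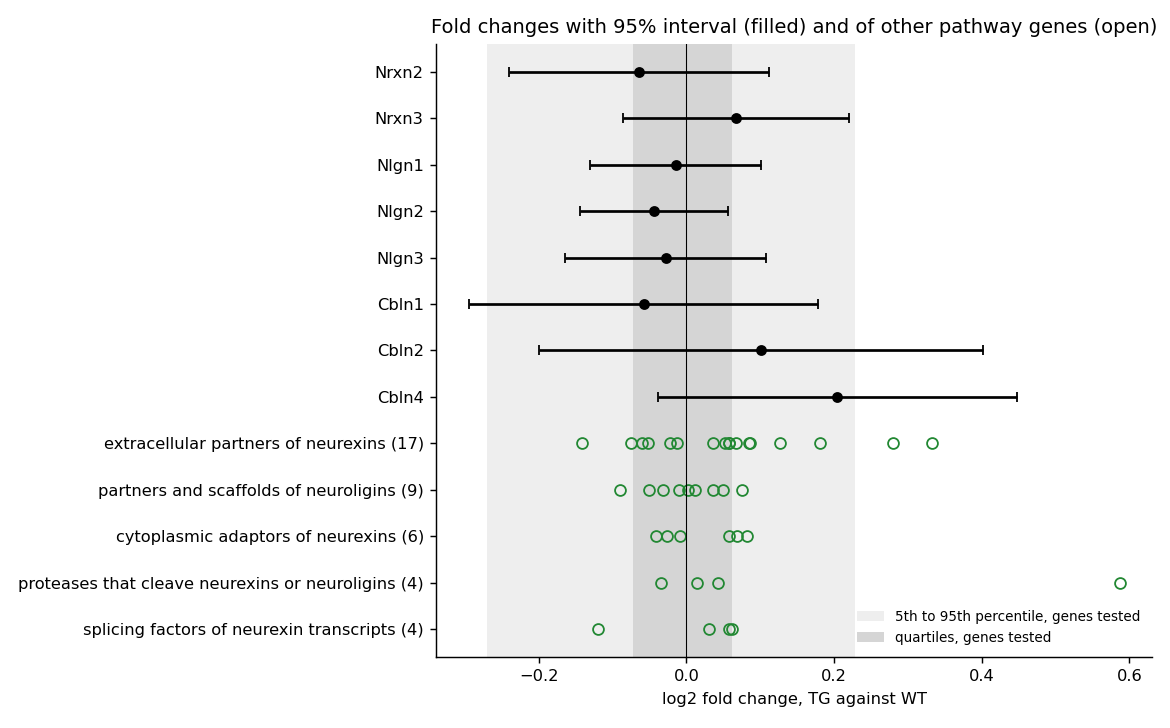
Log2 fold change of TG against WT mice (x axis) for the 8 genes (filled, with 95% interval) and for other genes of the pathway in 5 of the lists (open, 1 row per list, number of genes in brackets). Shaded bands give the quartiles (-0.07 to 0.06) and the 5th to 95th percentile (-0.27 to 0.23) of the 17605 genes tested. Each of the 8 intervals includes 0, and Mmp9 at 0.59 lies farthest to the right.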

How the data were processed

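Striatal RNA of 3 Shank3 TG and 3 WT mice was sequenced by the authors as paired-end reads of TruSeq v2 libraries. Per the paper's methods and the submitters' processing notes, reads were trimmed with Trimmomatic 0.35, aligned to GRCm38 with TopHat2 2.1.0 and counted per gene with HTSeq. The annotation release, strand setting and overlap mode are not given in the sources used here. The deposited signal holds each gene's count after division by the library's size factor from DESeq2. Every value was a whole multiple of the smallest value above 0 in its library (100% within 0.01), which gave back whole reads. Of 46078 identifiers, 45143 matched GENCODE M21.

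The main test was limma (3.58.1, with a trend of variance on mean) of log2(value + 1). Genes averaging 10 or more entered, 17605 in all, and P values were adjusted over them by the Benjamini-Hochberg method. Such fold changes understate changes of low genes. Intervals cover 95%. Alternatives were edgeR 4.0.16 (quasi-likelihood), DESeq2 1.42.0 and limma-voom on the recovered reads, scaling by TMM or by library totals, filters at 0 or 50 instead of 10, pseudocounts of 0.5 or 5, a replicate block and each library left out. The two-sided exact permutation test used the difference of mean log2 values. Fits were tested on simulated data. Named were the 8 genes, in each pathway list the gene with the smallest P value, and the 3 listed genes nearest in pattern to each cerebellin. Some genes that this rule takes in are not reported here. Dlg4, Lrrtm1 to Lrrtm4, Nxph4, Lhfpl4, Fezf2, Oxt and Cbln3 were, after their values were seen, named outside that rule. So were Prkcd, Synpo2, Zic1, Zic4, Nkx2-1 and Trh. Members and lists were chosen with earlier results of these data known.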

Additional observations from a re-analysis of the deposited data

How the results depend on the processing

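Every alternative left the 8 genes uncalled. With 1 library left out, 6 of 48 log2 fold changes of the 8 genes turned direction. Under the other alternatives 0 turned, but the filters and the replicate block cannot move a fold change by construction. With each library left out in turn, the values ran from -0.16 to 0.0030 for Nrxn2, from -0.046 to 0.027 for Nlgn1, from -0.073 to 0.016 for Nlgn3 and from -0.032 to 0.24 for Cbln2. They ran from 0.010 to 0.14 for Nrxn3, from -0.074 to -0.022 for Nlgn2, from -0.093 to -0.018 for Cbln1 and from 0.12 to 0.28 for Cbln4. The smallest unadjusted P values over the alternatives were 0.0177 for Nrxn2 and 0.0476 for Nrxn3, both without TG replicate 1, and 0.0355 for Cbln4, without WT replicate 1, with adjusted P values of at least 0.658. Over all genes, limma called 1 gene, DESeq2 on the recovered reads 7 and limma without a filter 5, and with each library left out the count was 1 to 2. The cause was not tested. No scaling moved the median of all genes by more than 0.01. Same-numbered libraries correlated by 0.05, 0.02 and 0.09 in their deviations. TG replicate 3 with WT replicate 3 was the highest of all pairs, whereas TG replicate 1 correlated best with WT replicate 2, at 0.08. Whether the replicate numbers pair the mice is not given in the sources used here, and such correlations cannot decide it. With the replicate number as a block, limma called 1 gene over all and 0 of the 8, and 1024 genes passed an unadjusted P value of 0.05, against 758 without it. Depth limits Cbln1 and Cbln4, whose counting errors were as large as, or close to, their spread between mice.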
